A study of Mus musculus with 8 samples.

Results

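The insulin-like growth factor 1 (IGF1) system was described in the RNA sequencing of S89G-DMP1 and wild-type (WT) mouse brain cells through 8 genes chosen by name, out of 47859 genes listed in either count table. They were the ligand gene Igf1, the receptor gene Igf1r and the IGF binding protein genes Igfbp2, Igfbp3, Igfbp4, Igfbp5, Igfbp6 and Igfbp7, and all 8 were listed in both tables. S89G-DMP1 mice carry a knock-in point mutation of Dmp1, which encodes the matrix protein DMP1, so that the serine bearing a glycosaminoglycan chain in its N-terminal part becomes glycine. The allele was made in C57BL/6J embryonic stem cells, its Neo cassette was removed by crossing to FLP1 mice, and the controls were C57BL/6 WT mice. Primary cortical astrocytes, grown in DMEM with serum, gave 1 WT and 1 S89G-DMP1 library. Neural stem cells (NSCs), grown as neurospheres from the subventricular zone, gave 3 WT and 3 S89G-DMP1 libraries. All samples are labelled as 10 weeks old, whereas the methods give 3 months and both genders for the mice used for astrocyte culture. Whether the 3 libraries of a genotype came from separate mice or cultures is not stated, so p-values measure the spread between these libraries only.

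IGF1 is a secreted growth factor that binds the receptor tyrosine kinase IGF1R, which signals through insulin receptor substrates to PI3K, AKT and mTOR and keeps FOXO factors out of the nucleus. IGF binding proteins hold IGFs outside the cell: they can withhold the ligand from the receptor, prolong its life or release it when a protease cuts them. In the brain, IGF1 is known for its roles in growth, myelination and survival, and IGFBP2 is an abundant binding protein of neural progenitors and glia. IGFBP7 binds IGFs weakly and is known mostly from vascular and stromal cells.

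The NSC libraries held 2354615 to 2588130 counted reads, and the astrocyte libraries 14008670 (WT) and 13016924 (S89G-DMP1). Gene counts do not show which codon a library carries. The mutated gene itself, Dmp1, had 18, 21 and 16 counts in WT NSCs, 6, 3 and 5 in S89G-DMP1 NSCs, 2 in WT astrocytes and 119 in S89G-DMP1 astrocytes. Libraries of the same NSC genotype differed little beyond counting error, with a chi-square per gene of 1.07 to 1.51 over 11136 genes, against 3.17 to 4.06 between genotypes. The astrocyte libraries differed in cell type markers. The library labelled WT astrocytes had 0.632 CPM (counts scaled to a common library total) of Aqp4, 0.632 CPM of Slc1a3 and 7.11 CPM of Gfap. These astrocyte genes were at 281, 269 and 62.6 CPM in the S89G-DMP1 library. Of all 9 astrocyte markers listed, 7 were at least 2-fold higher in the S89G-DMP1 library. Gja1 was at 92.0 CPM (WT) and 133 CPM (S89G-DMP1), and S100b was lower in S89G-DMP1, at 5.05 and 2.08 CPM. The summed level of 8 fibroblast markers was lower in the S89G-DMP1 library, at 5246 CPM (WT) and 2128 CPM (S89G-DMP1). Xist was at 961 and 5.14 CPM, so the libraries also differed in sex-linked expression. In bulk samples such as these, fewer cells of a type and less RNA per cell cannot be told apart.

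The promoter windows of Igfbp3 and Igfbp5 are shown because these genes differed in opposite directions in the 2 cell types, and those of Igfbp6 and Igfbp7 because they had the largest negative ratios in astrocytes. Each is the RefSeq window of GRCm38.p6 from 250 bases before to 50 bases after the start, written 5′ to 3′ on the strand of the gene, with motif matches on either strand in capitals.
Igfbp3 (chr11:7213874-7214173, minus strand): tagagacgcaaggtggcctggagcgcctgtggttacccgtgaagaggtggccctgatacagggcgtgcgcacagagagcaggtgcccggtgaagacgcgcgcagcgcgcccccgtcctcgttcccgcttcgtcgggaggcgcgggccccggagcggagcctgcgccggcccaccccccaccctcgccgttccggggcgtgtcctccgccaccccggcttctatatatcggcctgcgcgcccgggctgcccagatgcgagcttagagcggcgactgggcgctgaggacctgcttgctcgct
Igfbp5 (chr1:72874816-72875115, minus strand): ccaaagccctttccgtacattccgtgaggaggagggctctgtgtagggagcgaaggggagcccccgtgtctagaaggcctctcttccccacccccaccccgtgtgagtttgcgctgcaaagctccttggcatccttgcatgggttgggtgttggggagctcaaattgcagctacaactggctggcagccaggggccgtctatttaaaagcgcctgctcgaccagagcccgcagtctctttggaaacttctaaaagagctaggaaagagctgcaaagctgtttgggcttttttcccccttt
Igfbp6 (chr15:102143936-102144235, plus strand): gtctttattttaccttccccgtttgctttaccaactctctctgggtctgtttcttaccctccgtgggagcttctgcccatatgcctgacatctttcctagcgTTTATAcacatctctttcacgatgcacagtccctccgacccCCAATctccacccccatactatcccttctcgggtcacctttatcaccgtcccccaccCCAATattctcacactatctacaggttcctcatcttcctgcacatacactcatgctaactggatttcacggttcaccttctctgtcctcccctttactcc
Igfbp7 (chr5:77407996-77408295, minus strand): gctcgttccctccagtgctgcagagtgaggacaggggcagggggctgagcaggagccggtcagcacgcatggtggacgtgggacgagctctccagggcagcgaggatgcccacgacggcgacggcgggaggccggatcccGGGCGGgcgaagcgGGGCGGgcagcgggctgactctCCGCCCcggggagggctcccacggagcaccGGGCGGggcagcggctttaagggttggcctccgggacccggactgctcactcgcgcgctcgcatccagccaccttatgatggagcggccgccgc
The motifs searched were the TATA box TATAAA, the CCAAT box CCAAT, the GC box GGGCGG, the AP-1 element TGANTCA, the FOXO element GTAAACA and the E-box CACGTG, on both strands. None of the 6 had a match in the Igfbp3 or Igfbp5 window, so these are wholly in lower case. The Igfbp7 window held 4 GC boxes, and 35.7% of the 32851 windows in the table held at least 1. The Igfbp6 window held 2 CCAAT boxes, present in 37.4% of all windows, and 1 TATA box, present in 13.6%. Of the members not printed, Igfbp4 had a TATA box whose first base lay at position -28 from the start. Igf1 had a CCAAT box and an AP-1 element, Igf1r had 2 GC boxes, and Igfbp2, which has 2 windows, had 3 GC boxes and an E-box in the first and an AP-1 element in the second. AP-1 elements were in 7.81% of all windows, E-boxes in 7.15% and FOXO elements, absent from every member window, in 3.65%. The windows ranged from 49.7% GC (Igfbp6) to 76.0% GC (Igf1r), with a median of 52.7% over all windows. A match is a description of these letters only, and factor binding was not measured.

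By the mouse annotation GENCODE M21 (GRCm38), Igfbp2 (chr1:72824503-72852474, plus strand) and Igfbp5 (chr1:72857932-72874884, minus strand) are neighbours that point towards each other across 5458 bases. Igfbp3 (chr11:7206086-7213923, minus strand) lies 3540 bases from Igfbp1, which had 0 counts in all 8 libraries. Igfbp4 is at chr11:99041244-99054392, Igfbp6 at chr15:102144362-102149511, Igf1r at chr7:67952827-68233668 and Igf1 at chr10:87858265-87937042, all on the plus strand. The promoter windows of Igfbp6 and Igf1r end before these gene starts, so their RefSeq and GENCODE starts differ. The Igfbp7 gene (chr5:77349240-77408041, minus strand) overlaps Polr2b and the antisense gene Gm34648, and Igf1 overlaps the antisense gene Igf1os. Whether counting used the strand is not stated, so reads of these overlapping genes cannot be told apart.

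In NSCs, the question was whether the genotype changed the IGF1 system in stem cells. Transcripts of the receptor and 2 binding proteins were less abundant in the mutant NSCs than in their WT controls, and no member was higher past the test. The ligand gene Igf1 was called lower too, but it had few counts and passed the filter only through its WT libraries. Igfbp3 carried the change with the smallest p, while Igfbp2 and Igfbp4, also abundant, differed by less than the test could resolve. Of the 8 members, 6 passed the filter on low counts, and 4 of these were called lower and 0 higher at an adjusted p of 0.05 by edgeR's quasi-likelihood test. Among all 11194 tested genes 8.76% were called lower and 7.08% higher. DESeq2 called 2 members, Igf1r and Igfbp3, both lower, and 4.49% of all tested genes lower. Igf1 passed the filter, at 4.08 CPM, only through its WT libraries, and without it 3 of 5 tested members were called. The median log2 fold change was -0.43 over the 6 tested members, -0.32 without Igf1 and 0.00 over all tested genes.

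Igf1, the ligand gene, had 10, 12 and 13 counts in WT and 5, 3 and 5 counts in S89G-DMP1 NSCs. The groups did not overlap, but all 6 libraries held few counts of the gene. Its WT level was 4.69 ± 0.489 CPM and its S89G-DMP1 level 1.80 ± 0.448 CPM (SD, n = 3 each), a log2 fold change of -1.36 (SE 0.43, adjusted p = 0.0206 by edgeR). DESeq2 gave an adjusted p of 0.195. Without S89G-DMP1 library 2 or 3, or WT library 2 or 3, edgeR's adjusted p was 0.104, 0.0537, 0.0564 and 0.0762, so the call depended on single libraries.

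Igf1r, which encodes the receptor that binds IGF1, had 149, 137 and 156 CPM in WT and 122, 113 and 118 CPM in S89G-DMP1 NSCs. Every S89G-DMP1 library was below every WT library. The log2 fold change was -0.32 (SE 0.074, adjusted p = 9.0e-04 by edgeR), and the call held without each library in turn. On the deposited TPM values, limma gave an adjusted p of 0.163.

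Igfbp3, whose protein is the main IGF carrier of the circulation and can also act apart from IGFs, had 1084, 1119 and 1109 CPM in WT and 717, 673 and 700 CPM in S89G-DMP1 NSCs. The libraries of each genotype lay close together and far from those of the other. The level fell by 36.9%, a log2 fold change of -0.66 (SE 0.049, adjusted p = 7.7e-18 by edgeR). The call held in all 15 alternative analyses, and without each library in turn the log2 fold change ran from -0.68 to -0.64.

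Igfbp5, a binding protein that attaches to extracellular matrix, had 28.2, 29.1 and 30.0 CPM in WT and 20.2, 20.5 and 19.7 CPM in S89G-DMP1 NSCs. Again no S89G-DMP1 library reached the WT range. The log2 fold change was -0.53 (SE 0.15, adjusted p = 0.00907 by edgeR), and DESeq2 gave an adjusted p of 0.125. Groups without overlap in this direction were found for 16.0% of all tested genes, and for 3 of the 5 tested members other than Igf1, whose own separation is partly set by the filter.

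Igfbp2, the most abundant binding protein gene of these NSCs per unit of length, had 782, 839 and 945 CPM in WT and 892, 882 and 839 CPM in S89G-DMP1 NSCs, and the groups overlapped. Its log2 fold change was 0.03, with a 95% interval from -0.08 to 0.13 (adjusted p = 0.805 by edgeR). Igfbp4, whose protein mainly restrains IGF action and is cut by the protease PAPP-A, had 188, 221 and 218 CPM in WT and 234, 217 and 197 CPM in S89G-DMP1 NSCs. These groups overlapped too, and the log2 fold change was 0.04 with an interval from -0.09 to 0.18 (adjusted p = 0.744 by edgeR). For both genes the interval leaves out a change of the size measured for Igfbp3.

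Igfbp7 and Igfbp6 did not pass the filter. Igfbp7 had 5, 6 and 3 counts in WT and 7, 4 and 5 counts in S89G-DMP1 NSCs, and an exact permutation test of its CPM (two-sided) gave p = 0.6, where the smallest p that 3 against 3 libraries allow is 0.1. Igfbp6, which encodes a binding protein with a preference for IGF2, had 0 counts in all 3 WT libraries and 1, 1 and 0 counts in S89G-DMP1 NSCs. With no filter, edgeR gave an adjusted p of 0.591 for Igfbp6 and 0.850 for Igfbp7, with at most 7 counts of either gene in a library.

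**Figure D1:**
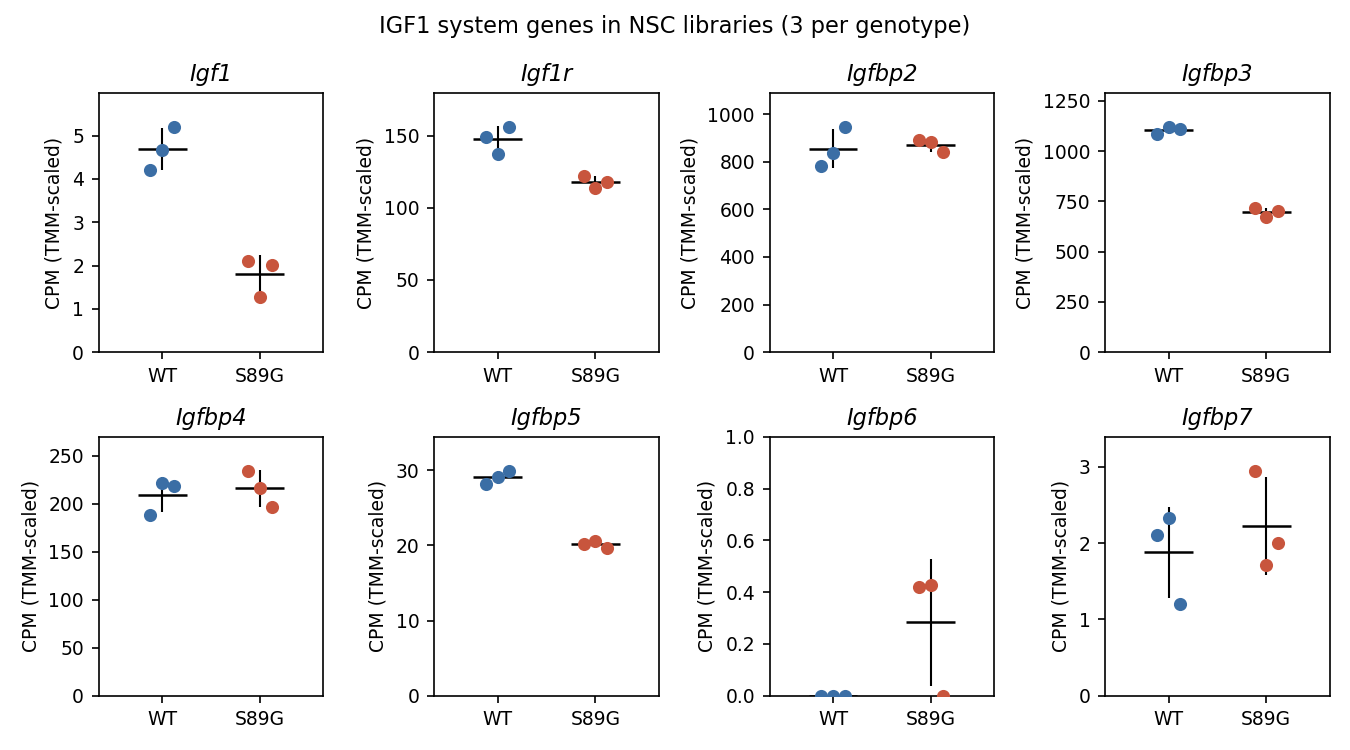
CPM scaled by TMM (edgeR's trimmed mean of M-values) of the 8 genes in each NSC library, 3 WT (blue) and 3 S89G-DMP1 (red), with the mean as a horizontal line and the SD as a vertical bar; each panel has its own axis from 0. Igf1, Igf1r, Igfbp3 and Igfbp5 show no overlap between genotypes, whereas Igfbp2, Igfbp4 and Igfbp7 do, and Igfbp6 has at most 1 count in a library.

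Per kilobase of gene length, the levels in WT NSCs ran from Igfbp2 at 801 ± 77.5 CPM per kb (SD, n = 3), Igfbp3 at 535 ± 8.70 and Igfbp4 at 177 ± 15.5 to Igf1r at 32.8 ± 2.10 and Igfbp5 at 5.66 ± 0.167 CPM per kb. Igf1, at 2.39 ± 0.249, and Igfbp7, at 1.62 ± 0.518, followed. The order of these last genes was not stable, since in S89G-DMP1 NSCs Igfbp7 was at 1.92 ± 0.558 and Igf1 at 0.916 ± 0.228 CPM per kb. The other neighbours lay further apart than their spread in both genotypes. Igfbp3 thus made up 35.3% ± 1.82 (SD, n = 3) of the summed per-length level of the 6 binding protein genes in WT and 25.2% ± 0.935 in S89G-DMP1 NSCs, and Igfbp2 52.6% ± 1.93 and 60.8% ± 0.724. These shares depended on the gene lengths, which came from the astrocyte values. With the union of annotated exons, chosen after seeing the data, Igfbp3 made up 40.6% in WT and 29.7% in S89G-DMP1 NSCs. Igfbp2 then made up 53.2% and 63.0%, and Igfbp4 5.44% and 6.52%.

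The genes whose log2 CPM followed a called member most closely over the 6 NSC libraries were sought among 8081 or 8082 tested genes that averaged 50 counts or more. For Igfbp3 they were Ppp1r16b, a regulatory subunit of protein phosphatase 1, and Ptp4a3, a tyrosine phosphatase (Pearson r = 0.999 for both). For Igfbp5 they were the tetraspanin gene Cd81 and the tensin gene Tns3 (r = 1.00 for both). Igf1r was followed by the adhesion molecule gene Ncam1 and by Cachd1 (r = 0.998 and 0.994), and Igf1 by the spindle protein gene Numa1 and the ephrin gene Efnb2 (r = 0.998 and 0.996). All of these correlations rest on 6 libraries that differ by genotype, and are given as a description.

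Of 48 other genes of the IGF pathway, 34 were tested in NSCs, and 9 were called lower and 2 higher by edgeR. As shares of those tested, 26.5% were called lower and 5.88% higher by edgeR, against 8.76% and 7.08% of all tested genes. The median log2 fold change of the list was -0.13 against 0.00 over all tested genes. DESeq2 called 2 of the 34 lower and 0 higher, against 4.49% of all tested genes lower. The share called lower thus depended on the test. Only Igf2r and Pik3r3 were also called by DESeq2 and without each library in turn. Igf2r, the scavenger receptor that takes up IGF2, was at 108 ± 7.75 CPM in WT and at 82.2 ± 2.94 CPM in mutant NSCs (SD, n = 3 each, log2 fold change -0.40, SE 0.085, adjusted p = 2.9e-04 by edgeR). Pik3r3, a regulatory subunit of PI3K, was at 175 ± 4.70 and 137 ± 7.00 CPM (log2 fold change -0.35, SE 0.070, adjusted p = 1.2e-04).

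Among the other called genes, the adaptor gene Grb14 went from 8.48 ± 0.982 to 4.30 ± 0.403 CPM (log2 fold change -0.97, adjusted p = 0.0179 by edgeR). Like Igf1, Grb14 passed the filter through its WT libraries, since S89G-DMP1 library 2, at 3.85 CPM, was under it. With at least 10 counts required in every library, which leaves Grb14 out, 8 of 32 other pathway genes were called lower and 2 higher. Under that filter 942 of all 10568 tested genes were called lower and 757 higher. Irs2, a substrate of the insulin and IGF1 receptors, changed by -0.27 (adjusted p = 0.0171) and the transcription factor gene Foxo3 by -0.28 (adjusted p = 0.00707) on the log2 scale. Eif4ebp1, a repressor of translation inhibited by mTOR, was called higher with 0.41 (adjusted p = 0.0140), although its genotype groups overlapped. By role, both tested receptor genes (Igf2r and Insr), 3 of 5 tested adaptors (Grb14 among them) and 1 of 3 FOXO genes were called lower. Of 18 tested genes of PI3K, AKT and mTOR, 3 were called lower and 2 higher. No ligand gene of the list could be tested, since Igf2, Ins1 and Ins2 had at most 2 counts in a library.

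**Figure D2:**
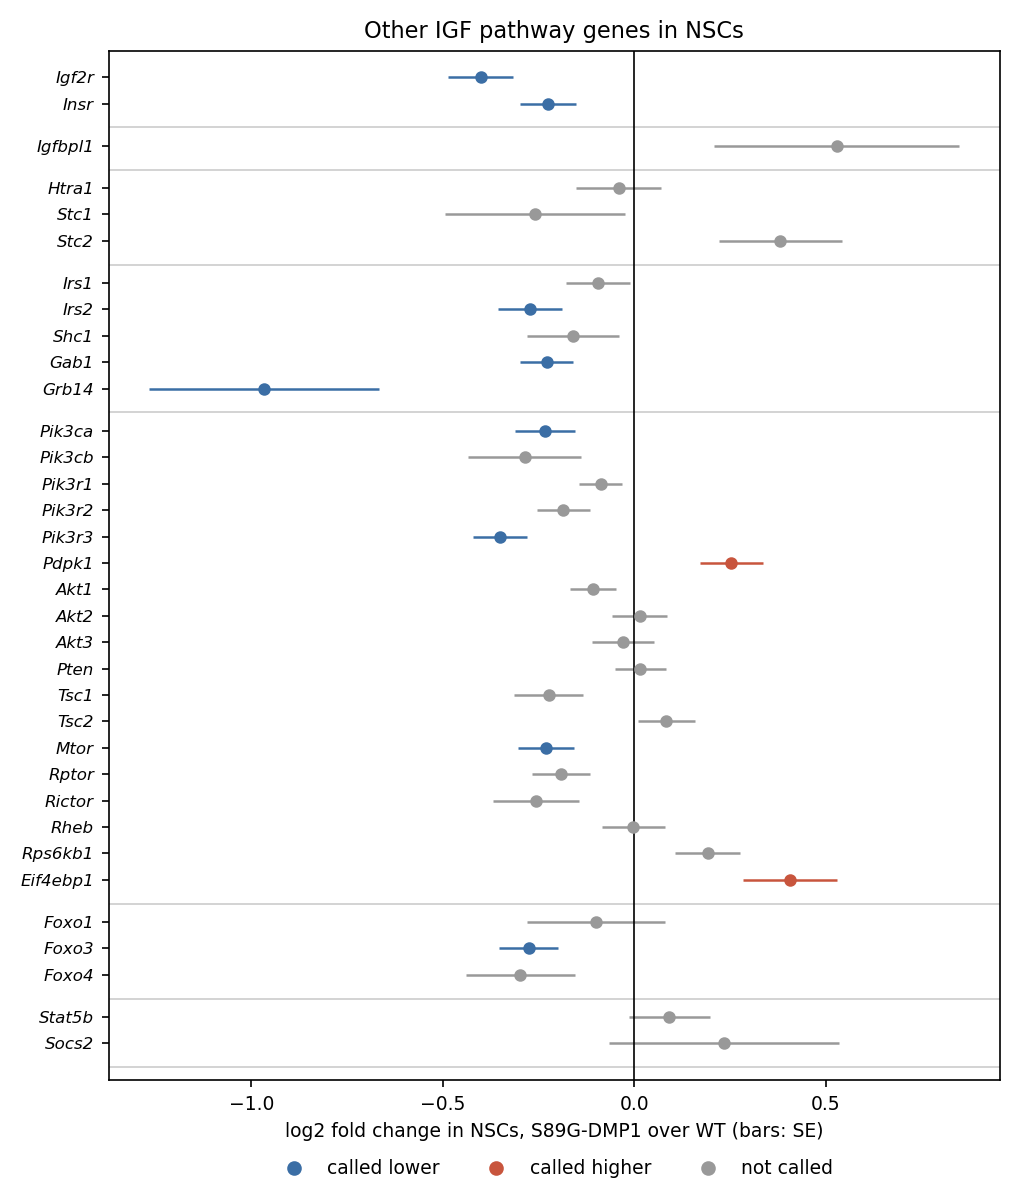
Log2 fold change (S89G-DMP1 over WT NSCs) of the 34 tested genes of the IGF pathway outside the 8 members, with the SE from edgeR as bars and lines between the roles. The 9 genes called lower are blue, the 2 called higher red, and most of the genes not called (grey) also lie left of 0, with 24 negative values in all.

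Of the markers of other cell types in NSCs, the oligodendrocyte lineage list summed to 3492 to 3760 CPM in WT and 3644 to 3811 CPM in S89G-DMP1 NSCs, mostly from Olig1 and Olig2, and 0 of its 3 tested genes were called by edgeR, while the defining markers Mog, Mbp and Sox10 were near 0. The neuron list summed to 1155 to 1302 CPM and 1190 to 1214 CPM, mostly from Map2, and 1 of its 4 tested genes was called, Syt1, from 61.5 ± 3.75 to 7.63 ± 2.29 CPM (SD, n = 3 each, adjusted p = 1.3e-23 by edgeR). The fibroblast list summed to 19.0 to 29.6 CPM in WT and 18.0 to 21.5 CPM in S89G-DMP1 NSCs, and 1 of its 2 tested genes was called, Pdgfra, from 15.7 ± 2.58 to 8.75 ± 1.23 CPM (adjusted p = 0.00402), while Col1a2, Dcn and Lum were at 0. The mural list summed to at most 4.81 CPM, and the microglia and macrophage list to at most 0.856 CPM, with none of its genes over 3 counts. The endothelial list summed to at most 4.27 CPM in WT but to between 5.56 and 10.5 CPM in S89G-DMP1 NSCs, with Flt1 its only tested gene, called higher, while Cdh5, Cldn5 and Emcn were at 0 in the group means. Astrocyte markers differed more: their sum was 1574 to 1620 CPM in WT and 2128 to 2178 CPM in S89G-DMP1 NSCs, mostly from Slc1a3 and Aldh1l1. Of these markers 4 of 7 tested were called higher. The defining markers Gfap and Aqp4, with at most 6 and 12 counts in a library, were too low to be tested. The neural progenitor list summed to 3464 to 3693 CPM and 3823 to 3894 CPM. The part of these markers in the lower Igfbp3, Igfbp5, Igf1r and Igf1 was not tested.

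In astrocytes, the question was the same for cortical cultures, but with 1 library per genotype there is no replicate check and no test, and the intervals below are 95% Clopper-Pearson intervals that cover counting error only. The binding protein genes differed strongly and in both directions between these libraries. Igfbp3 and Igfbp5 were over 10-fold higher in the S89G-DMP1 library, Igfbp6 and Igfbp7 over 20-fold lower, and Igfbp4 and Igf1 lower as well. Of the 8 members, 6 were at least 2-fold apart, 2 higher and 4 lower, and 5 were at least 4-fold apart. Among the 15680 genes that reached 10 counts in a library, 30.1% were at least 2-fold apart (17.3% higher and 12.8% lower) and 13.8% at least 4-fold. Scaling by library size alone moved the all-gene median log2 ratio from 0.01 to 0.30, and the 6 members then had log2 ratios of -1.62 (Igf1), 4.45 (Igfbp3), -2.42 (Igfbp4), 4.17 (Igfbp5), -5.05 (Igfbp6) and -4.24 (Igfbp7).

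Igf1 had 6835 counts (540 CPM) in WT and 2071 counts (144 CPM) in S89G-DMP1 astrocytes. It was 3.75-fold lower in the S89G-DMP1 library (log2 ratio -1.91, interval -1.98 to -1.84). Igf1r, with 2818 and 2946 counts (222 and 205 CPM), had a log2 ratio of -0.12 (interval -0.20 to -0.05), which became 0.17 with library size alone. The direction of Igf1r in astrocytes therefore depended on the scale.

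Igfbp3 had 225 counts (17.8 CPM) in WT and 4616 counts (321 CPM) in S89G-DMP1 astrocytes, 17.9-fold higher with a counting interval from 15.8 to 20.7. Igfbp5 had 1313 counts (104 CPM) and 22028 counts (1530 CPM), 14.7-fold higher, with an interval of the log2 ratio from 3.80 to 3.96. The log2 ratios of these genes, 4.16 and 3.88, were at percentiles 98.1 and 97.8 of all 15680 ratios. In NSCs both had been called lower, so the sign was opposite in the 2 cell types, a difference that was not tested because of the single astrocyte libraries.

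Igfbp7 had 19081 counts (1507 CPM) in WT and 938 counts (65.2 CPM) in S89G-DMP1 astrocytes, 23.1-fold lower with an interval from 21.7 to 24.7. Igfbp6 had 853 counts (67.3 CPM) and 22 counts (1.53 CPM), 40.3-fold lower on the scale with a prior count of 2, with a log2 ratio of -5.33 and an interval from -6.14 to -4.85. Igfbp4 had 6372 counts (503 CPM) and 1107 counts (76.9 CPM), 6.53-fold lower with an interval from 6.14 to 6.98. All 3 genes were well counted in the WT library and much lower in the S89G-DMP1 library, at percentiles 0.733, 0.376 and 3.14 of all ratios. Igfbp2, with 18637 and 26812 counts (1472 and 1862 CPM), was 1.27-fold higher, a log2 ratio of 0.34 that became 0.63 with library size alone.

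**Figure D3:**
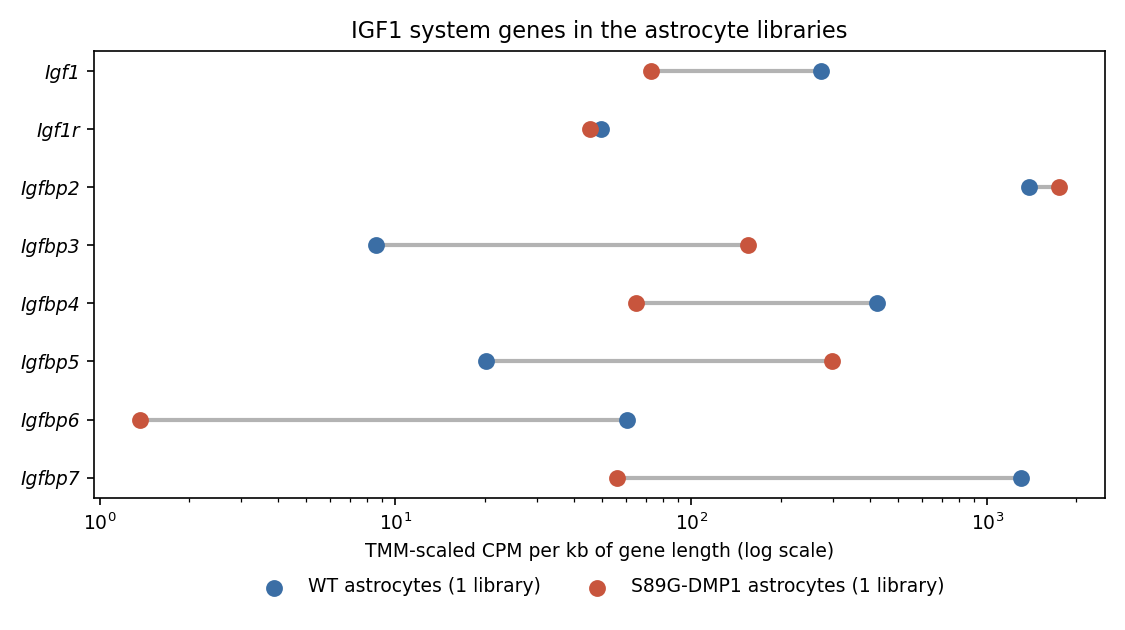
Level of the 8 genes in the WT (blue) and S89G-DMP1 (red) astrocyte library, as TMM-scaled CPM per kb of gene length on a log axis, with a grey line joining the libraries of a gene; there is 1 library per genotype and no error bar. Igf1, Igfbp4, Igfbp6 and Igfbp7 lie lower in S89G-DMP1, Igfbp3 and Igfbp5 higher, and Igf1r and Igfbp2 nearly coincide.

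Markers of several cell types moved with these ratios. Of 9 astrocyte markers 7 were at least 2-fold higher and 1 lower in the S89G-DMP1 library (sums of 136 and 1167 CPM), and the neural progenitor list went from 733 to 2081 CPM. The oligodendrocyte lineage list went from 21.1 to 267 CPM, mostly through Olig1 and Olig2, with 2 of 5 counted genes at least 2-fold higher and 0 lower. The neuron list went from 75.9 to 217 CPM, with 2 of 3 counted genes at least 2-fold higher and 1 lower. Of 8 fibroblast markers 6 were at least 2-fold lower, among them Pdgfra with 139 and 6.95 CPM and Dcn with 805 and 196 CPM. The mural list summed to 3255 and 3933 CPM, but Rgs5 went from 192 to 2.71 CPM and Pdgfrb from 929 to 158 CPM while Acta2 went from 723 to 2468 CPM. The endothelial list summed to 195 and 71.7 CPM, mostly through Cdh5 with 151 and 1.60 CPM, while the defining marker Cldn5 was at 0 in both. Of its 6 counted genes 4 were at least 2-fold lower and 1 higher, Kdr with 6.00 and 12.8 CPM. Flt1 also went up, from 31.9 to 54.9 CPM. The microglia and macrophage list summed to 499 and 709 CPM. The part of these markers in the lower Igfbp4, Igfbp6, Igfbp7 and Igf1 and the higher Igfbp3 and Igfbp5 was not tested. Genotype, culture and sex-linked expression cannot be told apart with 1 library each.

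Per kilobase, the sum of the 6 binding protein genes was 3193 CPM per kb in WT and 2319 CPM per kb in S89G-DMP1 astrocytes. In WT astrocytes it was made up mainly of Igfbp2 (43.1%), Igfbp7 (40.7%) and Igfbp4 (13.3%), with Igfbp6 at 1.90%, Igfbp5 at 0.631% and Igfbp3 at 0.269%. In S89G-DMP1 astrocytes Igfbp2 made up 75.2%, followed by Igfbp5 (12.8%) and Igfbp3 (6.70%), and Igfbp7 was down to 2.43% and Igfbp6 to 0.0593%. The order of Igfbp2 and Igfbp7 in WT astrocytes depended on the gene length used: with the union of annotated exons, a setting chosen after seeing the data, Igfbp7 made up 55.6% and Igfbp2 35.6% of the sum. With either length, the binding protein gene that stood beside Igfbp2 was Igfbp7 in the WT astrocyte library, Igfbp5 in the S89G-DMP1 astrocyte library and Igfbp3 in the NSCs of both genotypes. The count tables of the 2 cell types were made separately, so levels between them are set side by side only.

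**Figure D4:**
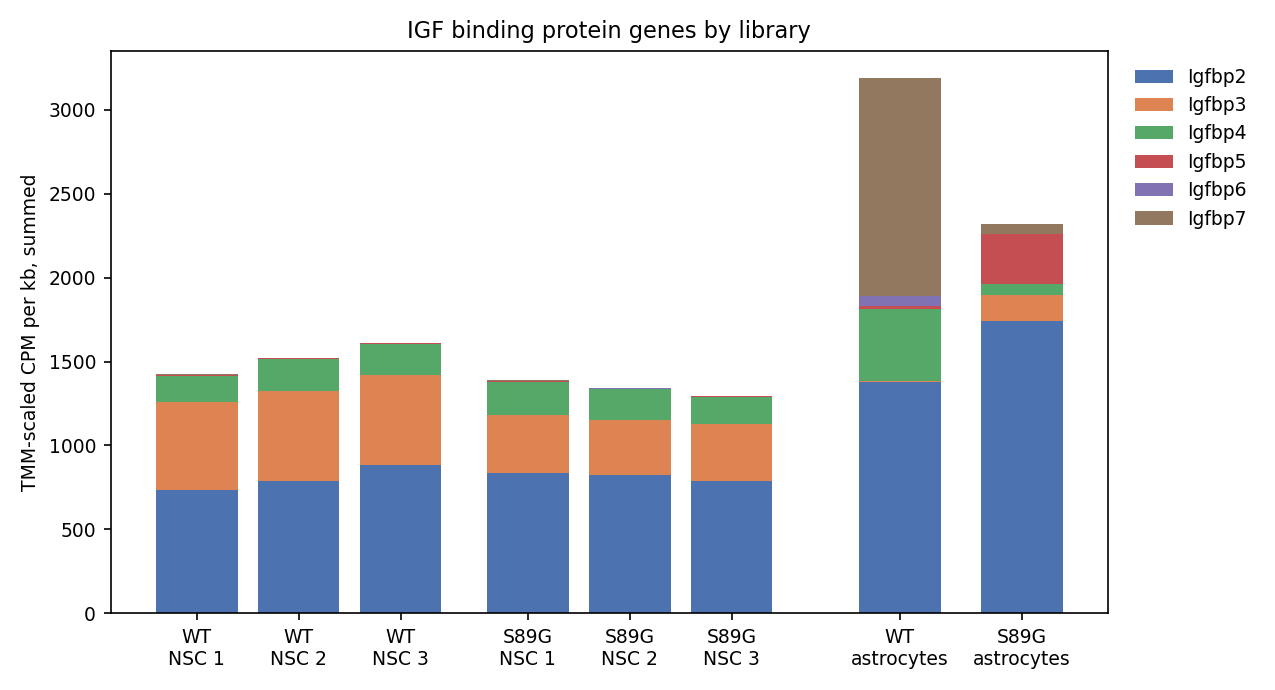
Summed level of the 6 IGF binding protein genes in each of the 8 libraries, as TMM-scaled CPM per kb of gene length stacked by gene from 0. With these lengths Igfbp2 is the largest block in each library, though with union exon lengths Igfbp7 is larger in WT astrocytes; Igfbp3 shrinks from WT to S89G-DMP1 NSCs, and Igfbp7 gives way to Igfbp5 and Igfbp3 from WT to S89G-DMP1 astrocytes.

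Of the 48 other pathway genes, 42 were counted in astrocytes, of which 6 were higher and 5 lower by 2-fold or more, against 17.3% and 12.8% of all genes. As shares of those counted, 14.3% were higher and 11.9% lower. The list of binding protein proteases and their inhibitors had 1 of its 5 genes higher and 2 lower by 2-fold or more, while Stc2 and Pappa2 were under 2-fold (log2 ratios 0.19 and 0.44). Stc1, an inhibitor of the protease PAPP-A, had 35 counts in WT and 4141 in S89G-DMP1 astrocytes (log2 ratio 6.63, interval 6.22 to 7.23), and Pappa, which encodes PAPP-A itself, had 1822 and 491 counts (log2 ratio -2.07). The binding protein-like gene Igfbpl1 had 3 and 102 counts, a log2 ratio of 4.23 with an interval from 3.31 to 7.20.

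Irs2 was also higher, with 214 and 1959 counts (16.9 and 136 CPM), while in NSCs it had been called lower. Socs2, a feedback inhibitor of growth hormone signaling, had 1453 and 288 counts (log2 ratio -2.51), and Rictor, a subunit of mTOR complex 2, had 4787 and 1047 counts (log2 ratio -2.38). In NSCs none of Stc1, Socs2, Rictor and Igfbpl1 passed the test, and Pappa was too low to be tested. Ghr, the growth hormone receptor gene, was the other gene of the growth hormone arm at least 2-fold lower in astrocytes, with 3824 and 1285 counts (log2 ratio -1.76).

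**Figure D5:**
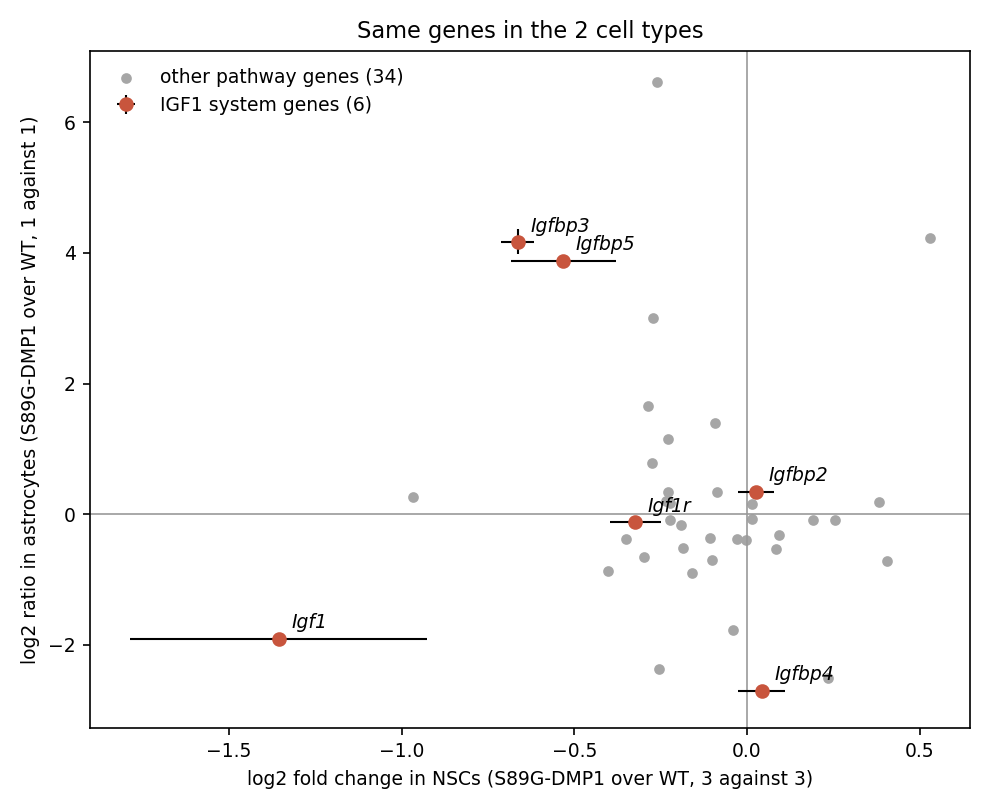
Log2 fold change in NSCs (x axis, 3 against 3 libraries, bars for the SE) against the log2 ratio in astrocytes (y axis, 1 against 1 library, bars for the 95% counting interval), both S89G-DMP1 over WT, for the 6 members tested in NSCs (red) and 34 other pathway genes (grey). Igfbp3 and Igfbp5 lie at upper left (negative in NSCs, positive in astrocytes), Igf1 at lower left, and Igfbp4 near 0 in NSCs but at -2.71 in astrocytes.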

How the data were processed

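RNA sequencing of 8 samples was used: WT and S89G-DMP1 astrocytes with 1 library each, and NSCs with 3 each. The authors deposited gene-level read counts and FPKM values of the astrocytes, after alignment with TopHat 2.0.9 on a Bowtie2 2.0.6 index, with the counter and build not given in the sources used here. For the NSCs the authors deposited raw counts and TPM values, and the submitters' processing notes name HISAT2, StringTie, featureCounts and GRCm38. All columns used were mapped to a sample, and 0 were left out.

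The 8 genes and the pathway, marker and motif lists were chosen with earlier results of these data known. Named besides the members were up to 6 called pathway genes with the largest change in NSCs, up to 6 pathway genes with the largest ratio and at least 50 counts in astrocytes, and the 2 genes closest in pattern to each called member. Ghr, Insr, the genes named as untested and single markers were named after their values were seen.

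NSC counts passed filterByExpr and TMM scaling before the comparison with edgeR 4.0.16 (quasi-likelihood, genotype as the only term, Benjamini-Hochberg adjusted p of 0.05) in R 4.3.3. This sets an adjusted p over all 11194 tested genes. For astrocytes, TMM-scaled CPM (prior count 2) gave a log2 ratio for each gene that reached 10 counts in a library. Gene lengths for levels per kb were those implied by the astrocyte counts and FPKM, equal between libraries within 0.1 percent for all 18713 genes with a count in both. Between 2354615 and 2588130 counts per NSC library limit genes with few counts, such as Igf1, Igfbp6 and Igfbp7. The procedures were tested on simulated data. For NSCs, alternatives were DESeq2 1.42.0, limma 3.58.1 on log2(TPM + 1) and log2(TPM + 0.1), upper-quartile and RLE factors and unscaled library sizes. Other filters, a replicate block and each library left out were used as well. For astrocytes, alternatives were library size alone, RLE, FPKM, a prior count of 0.5, other count minimums and folds of 1.5 and 4. Gene lengths from the union of exons were added for both cell types after seeing the data. Sequences came from RefSeq windows of GRCm38.p6, and all 8 members matched. Figures were drawn with matplotlib 3.10.9.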

Additional observations from a re-analysis of the deposited data

Results flagged for a closer look

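Igfbp3 and Igfbp5 are listed here because they had opposite signs in the 2 cell types and NSC groups without overlap. For Igfbp3 the log2 value of S89G-DMP1 over WT was -0.66 in NSCs and 4.16 in astrocytes, and for Igfbp5 it was -0.53 in NSCs and 3.88 in astrocytes. That all 3 S89G-DMP1 NSC libraries were below all 3 WT libraries for both genes was therefore a condition of listing. Groups without overlap in this direction were found for 16.0% of all tested genes. Igfbp4 also had opposite signs (0.04 in NSCs and -2.71 in astrocytes) but was not listed, since its NSC groups overlapped. The difference between cell types was not tested, since each astrocyte genotype has 1 library. The astrocyte libraries also differed in astrocyte markers (136 and 1167 CPM in WT and S89G-DMP1) and fibroblast markers (5246 and 2128 CPM), and their part in the opposite signs was not tested.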

How the results depend on the processing

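Igfbp3 kept its direction and its call in all 15 NSC alternatives, and the 6 members at least 2-fold apart in astrocytes numbered at least 5 in all 9 alternatives there. With DESeq2, limma on log2(TPM + 1) and limma on log2(TPM + 0.1), the genes called in NSCs numbered 851, 122 and 111 in place of 1773, the members called 2 each in place of 4, and the other pathway genes called 2, 0 and 0 in place of 11. Of the 34 pathway genes tested, 11, 6 and 6 had an unadjusted p under 0.05 in these 3 analyses. The cause was not tested. DESeq2 used the same counts as edgeR. The deposited TPM values, used by limma only, list some well counted genes at 0, such as Olig1 in all 6 libraries and Sox2 in 5 of 6. The uncalled differences of Igfbp2 and Igfbp4 changed sign on the TPM scales, to -0.0724 and -0.0668 (TPM + 1) and -0.0724 and -0.0673 (TPM + 0.1), and with single libraries left out they ran from -0.0338 to 0.104 and from -0.0263 to 0.106. Leaving out single libraries gave 1363 to 1659 genes, 3 to 4 members and 5 to 10 other pathway genes called. The pathway count was 5 without S89G-DMP1 NSC library 2 or 3 and 6 without WT NSC library 3. Whether the replicate numbers pair libraries across genotypes is not stated. Same-numbered libraries deviated together with correlations of 0.054, 0.014 and 4.3e-04, and differently numbered ones with -0.044 to 0.031. Since libraries of a genotype differed little beyond counting error, these values cannot settle a pairing. A fit with the replicate number as a block called 1845 genes, 4 members and 11 other pathway genes. In astrocytes, 3071 genes were at least 2-fold apart with at least 10 counts in both libraries, where fewer genes are counted, 7294 genes were at least 1.5-fold and 2167 at least 4-fold apart, and the other pathway genes past 1.5-fold and 4-fold numbered 17 and 6 in place of 11. The counts of other pathway genes under these alternatives were added after seeing the data. Depth limits Igf1, Igfbp6 and Igfbp7 in NSCs, and in astrocytes the single library of each genotype leaves counting error as the only error measured.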
